A study of Homo sapiens with 16 samples.

Results

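The enzymes that make serine and pass its carbon into the folate cycle were followed over 45 h of HER2 inhibition in SUM225 cells. They are PHGDH, PSAT1 and PSPH for serine synthesis, SHMT1 and SHMT2 for the transfer of a carbon from serine to folate, MTHFD1 and MTHFD2 for the interconversion of folates, and GLDC for glycine cleavage. All probes with 1 of these 8 gene symbols were taken, which gave 13 of the 24526 probes on the array (18631 symbols). SHMT1 and MTHFD2 had 3 probes each, PSAT1 had 2 and the other genes had 1. Of the 13 probes, 11 had a detection p-value under 0.05 on at least 3 arrays and were tested, among 16110 probes in all, and each of the 8 genes kept at least 1 probe. The remaining 2 probes, ILMN_1712563 of PSAT1 and ILMN_2293322 of MTHFD2, were well above background on 0 of 16 arrays.

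SUM225 is a HER2-amplified breast cancer cell line, and all cultures received 1 µM CP724,714, a small molecule inhibitor of the HER2 kinase. Parallel cultures were collected at intervals of 3 h, with 1 culture and 1 Illumina bead array at each of 16 time points from 0 h to 45 h. No untreated time series was analysed here. Time in culture and time in the inhibitor therefore cannot be told apart, and the results describe a single cell line with no replicate cultures. For its time series in MCF10A and derived lines, the study reports a medium change when treatment began. If the same was done here, time since fresh medium cannot be told apart from these either. The labels give a medium with serum, insulin and hydrocortisone, whereas the study's methods put this line in serum-free medium without insulin, so the medium of these cultures is uncertain.

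Serine is made from the glycolytic intermediate 3-phosphoglycerate. PHGDH oxidises it, PSAT1 adds an amino group from glutamate and PSPH removes the phosphate. SHMT1 in the cytosol and SHMT2 in mitochondria then turn serine into glycine and load a carbon unit on tetrahydrofolate, which MTHFD1 (cytosol) and MTHFD2 (mitochondria) bring to the forms used for purine and thymidylate synthesis, and GLDC is the decarboxylating subunit of the mitochondrial system that draws a carbon unit from glycine. In many tumours and cell lines PSAT1, PHGDH, PSPH, SHMT2 and MTHFD2 are targets of the stress-responsive transcription factor ATF4. PHGDH is amplified or over expressed in a subset of breast cancers.

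The arrays had median signals between 242 and 384 and between 14110 and 15073 detected probes (57.5% to 61.5%). All 10 markers of HER2-amplified luminal epithelium, ERBB2 and keratins among them, were detected on all 16 arrays. Of the 5 fibroblast markers, COL3A1, DCN and PDGFRB were detected on 0 arrays and COL1A1 and COL1A2 on 5 each. PTPRC, the defining leukocyte marker, was also detected on 0 arrays, while CD14 was detected on all 16. The endothelial markers PECAM1, VWF and CDH5 were detected on 16, 13 and 1 arrays, and the part of these markers in any result was not tested. The arrays are described below in consecutive sets of 4 (0 h to 9 h, 12 h to 21 h, 24 h to 33 h and 36 h to 45 h). The labels name no batch, and whether the arrays were processed in such sets is not known, so at the border between 9 h and 12 h an effect of processing cannot be told apart from that of time. Over all tested probes the root mean square difference between neighbouring arrays was 0.42 log2 units from 9 h to 12 h, 0.42 from 42 h to 45 h and 0.40 from 3 h to 6 h, with the other 12 intervals between 0.26 and 0.36. The borders at 21 h to 24 h (0.36) and 33 h to 36 h (0.33) were above the other intervals from 12 h to 42 h, which lay between 0.26 and 0.30. They were not above all intervals within 0 h to 9 h, which lay between 0.35 and 0.40. What set these differences was not tested.

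Promoter sequence was at hand in the RefSeq table (GRCh38.p14) for 6 of the 8 genes, PHGDH, PSAT1, SHMT1, MTHFD1, MTHFD2 and GLDC. The 250 bases before the start of PSAT1, which was raised at 12 h, are shown beside those of MTHFD1, SHMT1 and GLDC, which were lowered at 12 h. They lie at chr9:78296875-78297124 on the plus strand, chr14:64388103-64388352 on the plus strand, chr17:18363551-18363800 on the minus strand and chr9:6645730-6645979 on the minus strand, each ending at the base before the annotated start of its gene and written in the direction of transcription. Capitals mark the letters CCAAT, or ATTGG on the other strand, and the E-box CACGTG.
PSAT1: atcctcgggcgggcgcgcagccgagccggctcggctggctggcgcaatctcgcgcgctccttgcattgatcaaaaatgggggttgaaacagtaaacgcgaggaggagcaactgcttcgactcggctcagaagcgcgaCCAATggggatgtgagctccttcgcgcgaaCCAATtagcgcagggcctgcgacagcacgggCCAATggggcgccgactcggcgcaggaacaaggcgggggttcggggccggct
MTHFD1: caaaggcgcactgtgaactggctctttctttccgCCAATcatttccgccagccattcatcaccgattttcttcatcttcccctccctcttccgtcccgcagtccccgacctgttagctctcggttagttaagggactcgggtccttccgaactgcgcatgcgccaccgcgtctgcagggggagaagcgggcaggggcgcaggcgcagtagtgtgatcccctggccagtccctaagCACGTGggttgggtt
SHMT1: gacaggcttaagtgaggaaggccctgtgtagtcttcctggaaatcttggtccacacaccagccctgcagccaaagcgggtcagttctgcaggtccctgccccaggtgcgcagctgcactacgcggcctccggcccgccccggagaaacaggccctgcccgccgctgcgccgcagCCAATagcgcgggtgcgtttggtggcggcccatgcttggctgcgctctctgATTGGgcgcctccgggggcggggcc
GLDC: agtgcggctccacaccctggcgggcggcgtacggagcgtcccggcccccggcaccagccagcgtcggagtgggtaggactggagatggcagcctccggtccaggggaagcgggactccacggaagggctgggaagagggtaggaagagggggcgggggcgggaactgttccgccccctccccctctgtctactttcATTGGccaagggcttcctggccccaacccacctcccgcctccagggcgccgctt
Both strands were searched over 250 bases before and 50 bases after the start. CCAAT was found in all 6 promoters and in 34.6% of the 35116 promoters in the table. PSAT1 held it 3 times, at 113, 83 and 52 bases before the start. CACGTG was found in MTHFD1 alone, 15 bases before its start, and in 7.26% of all promoters. The core TGATGNAAN of the ATF4 response element (3.61% of all promoters) and the E2F motif TTTNGCGC (1.79%) were found in 0 of the 6, which says only that these letters are not in this window. The matches of CCAAT and CACGTG do not overlap, and CCAAT was added to the search after the first 3 motifs had been looked for.

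The signal of most of these enzymes depended on time. By the F-test on a cubic fitted with limma, 9 of the 11 probes passed at an adjusted p under 0.05, beside 51.3% of all tested probes, and the exceptions were both probes of MTHFD2. A linear change over 45 h passed for the same 9 probes (47.7% of all tested probes), of which all 9 fell (21.7% of all) and 0 rose (26% of all, and 0 of the 11 at an unadjusted p under 0.05 as well). The median linear change of the 11 probes was -0.87 log2 units, beside 0.05 for all tested probes. A departure from a straight line passed for 3 probes, those of GLDC, PHGDH and SHMT1 ILMN_1811933 (19.3% of all tested probes). In 6 of the 11 probes the widest change of all 15 intervals was that between 9 h and 12 h (14.9% of all tested probes), upward in PSAT1 and SHMT2 (7.09% of all) and downward in MTHFD1, GLDC and 2 probes of SHMT1 (7.84% of all).

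**Figure D1:**
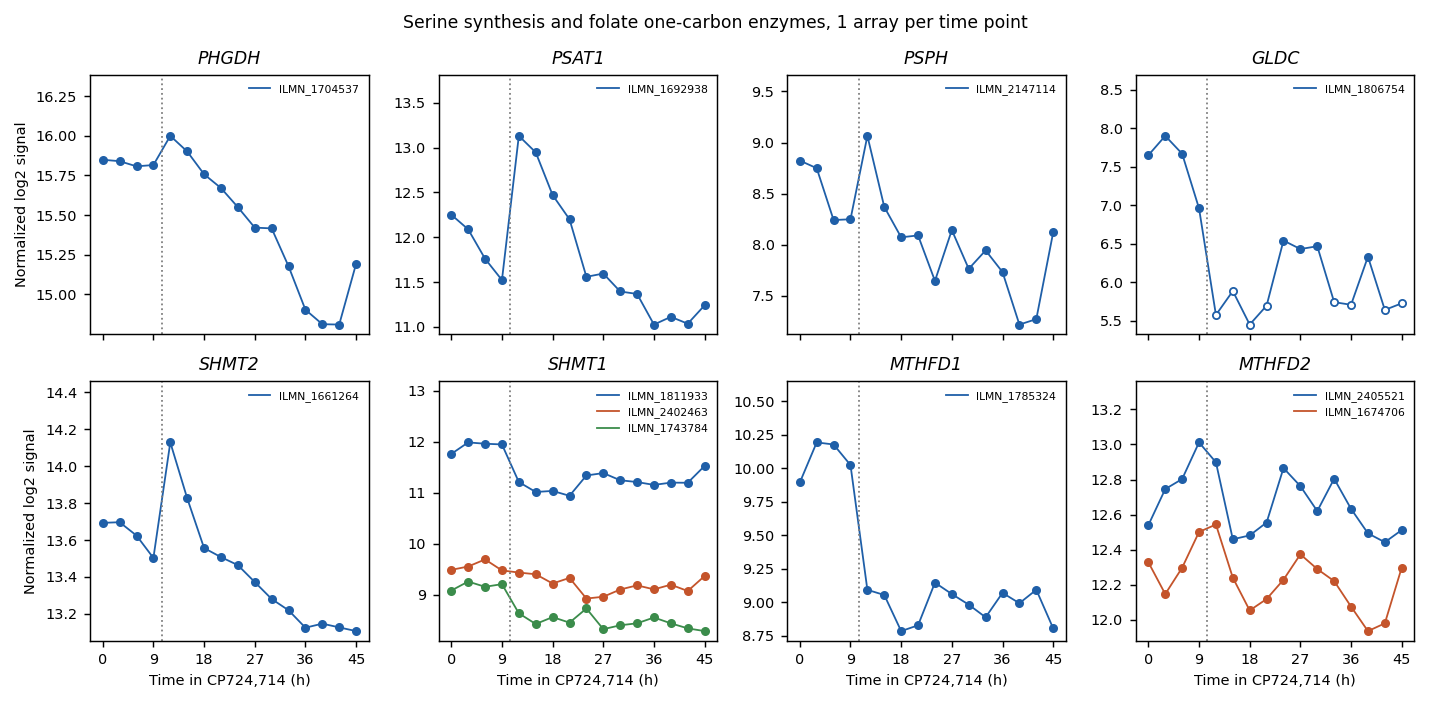
Normalized log2 signal (y axis, own scale in each panel) against hours in CP724,714 (x axis) for the 11 tested probes, with 1 point per array, open points where the detection p-value was 0.05 or above, and a dotted line between 9 h and 12 h. PSAT1, SHMT2, PSPH and PHGDH peak at 12 h and decline, while MTHFD1, GLDC and 2 of the 3 SHMT1 probes drop at 12 h.

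The step between 9 h and 12 h was tested as a shift of all later arrays beside the cubic course. Arrays of 0 h to 9 h and 12 h to 21 h were known from earlier results of these data to differ over many probes. The p-values of the step are thus not those of an independently chosen time. It passed for 6 of the 11 probes, beside 12% of all tested probes. PSAT1 and SHMT2 stepped up (5.92% of all), and MTHFD1, GLDC and 2 SHMT1 probes stepped down (6.08% of all). The median step was -0.09 log2 units over the 11 probes and 0.01 over all tested probes. Leaving out the 0 h array or the 6 h array lowered the number of downward steps from 4 to 2 in each case, by the loss of GLDC and of SHMT1 ILMN_1743784. Of all tested probes, 2.86% and 3.41% stepped down in these fits. The 2 upward steps were called whichever of the 16 arrays was left out.

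**Figure D2:**
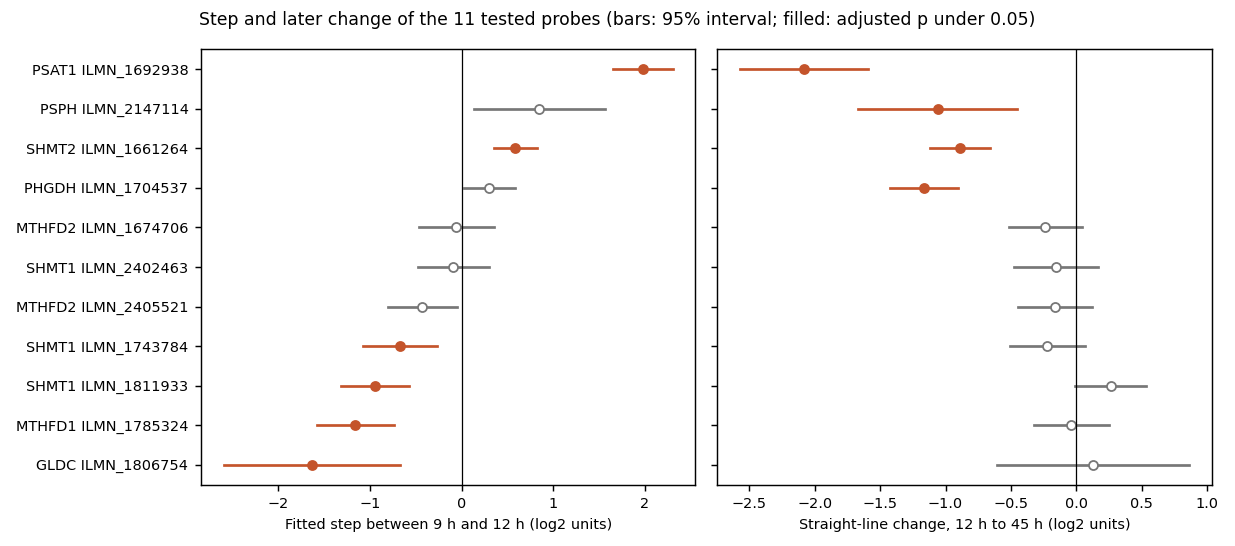
Fitted step between 9 h and 12 h (left) and straight-line change from 12 h to 45 h (right), both in log2 units on the x axis, for each tested probe, with 95% intervals as bars and filled points where the adjusted p was under 0.05. Probes are ordered by the fitted step. At the top are PSAT1, PSPH, SHMT2 and PHGDH, which fall after 12 h. Of these, the upward step passed in PSAT1 and SHMT2 and did not pass in PSPH and PHGDH. Probes at the bottom step down and then have intervals that include 0.

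PSAT1, the aminotransferase of the serine pathway, had the widest step upward. Its log2 signal (ILMN_1692938) was 12.25, 12.09, 11.76 and 11.52 at 0 h, 3 h, 6 h and 9 h. It was then 13.13, 12.95, 12.47 and 12.20 from 12 h to 21 h, 11.56, 11.59, 11.39 and 11.37 from 24 h to 33 h, and 11.03, 11.11, 11.03 and 11.24 from 36 h to 45 h. The signal thus declined over the first 4 arrays, was highest at 12 h and was below its 9 h value from 30 h on. The deposited signal was 2972 at 9 h and 9209 at 12 h, a difference of 1.61 log2 units (3.05-fold) after normalization. The fitted step was 1.98 ± 0.16 log2 units (SE, 95% interval 1.65 to 2.30, adjusted p = 5.48e-07 in limma), or 3.94-fold. From 12 h on, a straight line fell by 2.08 ± 0.23 log2 units over 33 h (adjusted p = 6.49e-06), which is 4.24-fold. The 12 h to 21 h values did not overlap those of 36 h to 45 h, but did overlap those of 0 h to 9 h, since 0 h was above 21 h.

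SHMT2, the mitochondrial serine hydroxymethyltransferase, had a course of the same form and a smaller size. Its log2 signal (ILMN_1661264) was 13.69, 13.70, 13.62 and 13.50 from 0 h to 9 h, and 14.13, 13.83, 13.56 and 13.51 from 12 h to 21 h. It declined further through 13.46, 13.37, 13.28 and 13.22 from 24 h to 33 h to 13.13, 13.15, 13.13 and 13.11 from 36 h to 45 h. Only the 12 h and 15 h arrays were above every array of 0 h to 9 h. The fitted step was 0.59 ± 0.11 log2 units (SE, 95% interval 0.35 to 0.83, adjusted p = 0.00248 in limma). The straight line after 12 h fell by 0.89 ± 0.11 log2 units (adjusted p = 1.51e-05), which is 1.85-fold.

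PHGDH, which catalyses the first step of serine synthesis, was near level before 12 h and then declined. Its log2 signal (ILMN_1704537) was 15.85, 15.84, 15.81 and 15.82 from 0 h to 9 h and 16.00, 15.90, 15.76 and 15.67 from 12 h to 21 h. The later values were 15.55, 15.42, 15.42 and 15.18 from 24 h to 33 h, and 14.90, 14.81, 14.81 and 15.19 from 36 h to 45 h. The highest array was again 12 h, but the step of 0.30 ± 0.13 log2 units did not pass (adjusted p = 0.158 in limma), and the difference of 0.18 between 9 h and 12 h was the fourth widest of its 15 intervals. It passed, at 0.38 with an adjusted p of 0.0331, when a straight line replaced the cubic beside the step. From 12 h to 45 h the signal fell by 1.16 ± 0.12 log2 units (adjusted p = 4.81e-06), or 2.24-fold. At 12 h the intensity of PHGDH reached 90.3% of that of the brightest probe, and whether the top of the scale compressed its changes was not tested.

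PSPH, the phosphatase that releases serine, varied more from array to array. Its log2 signal (ILMN_2147114) was 8.82, 8.75, 8.24 and 8.25 from 0 h to 9 h, and 9.07, 8.37, 8.07 and 8.09 from 12 h to 21 h. It then lay at 7.64, 8.14, 7.76 and 7.94 from 24 h to 33 h, and at 7.73, 7.22, 7.27 and 8.12 from 36 h to 45 h. Here too 12 h was the highest array, 0.82 log2 units (1.76-fold) above 9 h, but 15 h was already within the range of 0 h to 9 h. The change from 9 h to 12 h was the second widest of its 15 intervals. The widest was a rise of 0.85 from 42 h to 45 h, and the third was -0.70 from 12 h to 15 h. The step of 0.85 ± 0.34 log2 units did not pass (95% interval 0.13 to 1.56, adjusted p = 0.119 in limma), and it was 0.51 without the 12 h array and 0.24 with a straight line beside it. The signal fell by 1.06 ± 0.29 log2 units from 12 h to 45 h (adjusted p = 0.0113), and without the 12 h array by 0.71, which did not pass (adjusted p = 0.0940). Without background correction it fell by 0.65.

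The straight line over 12 h to 45 h, a description chosen after the values had been seen, thus fell for 4 of the 11 probes, beside 12% of all tested probes. These were PHGDH, PSAT1, PSPH and SHMT2, which are the 3 enzymes of serine synthesis and the mitochondrial enzyme that uses serine. Of the 11 probes 0 rose (13.6% of all tested probes, and 0 of the 11 at an unadjusted p under 0.05). PHGDH, PSAT1 and SHMT2 were lower on every array of 36 h to 45 h than on every array of 12 h to 21 h (12.3% of all tested probes).

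MTHFD1, the trifunctional cytosolic enzyme that makes and interconverts one-carbon folates, went the other way. Its log2 signal (ILMN_1785324) was 9.89, 10.19, 10.18 and 10.02 from 0 h to 9 h, and 9.09, 9.06, 8.79 and 8.83 from 12 h to 21 h. It was 9.15, 9.06, 8.98 and 8.89 from 24 h to 33 h, and 9.07, 8.99, 9.09 and 8.81 from 36 h to 45 h. All 12 arrays from 12 h on thus lay below all 4 earlier arrays. The deposited signal was 1179 at 9 h and 715 at 12 h. The step was -1.16 ± 0.20 log2 units (SE, 95% interval -1.57 to -0.74, adjusted p = 0.00107 in limma), or 0.448 of the level before. After 12 h the change of -0.04 ± 0.14 log2 units did not pass, with a 95% interval from -0.32 to 0.25. Fitted on the 8 arrays of 0 h to 21 h alone, the step of -0.99 did not pass (adjusted p = 0.0586).

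SHMT1, the cytosolic counterpart of SHMT2, was read by 3 probes that did not all move in the same way. ILMN_1811933 gave log2 signals of 11.76, 11.99, 11.96 and 11.95 from 0 h to 9 h and of 11.21, 11.01, 11.04 and 10.94 from 12 h to 21 h. It then gave 11.34, 11.39, 11.24 and 11.21 from 24 h to 33 h and 11.15, 11.20, 11.20 and 11.53 from 36 h to 45 h. Every array from 12 h on was below every earlier array, and the step was -0.94 ± 0.18 log2 units (SE, 95% interval -1.31 to -0.57, adjusted p = 0.00196 in limma), or 0.520 of the level before. ILMN_1743784 was between 9.08 and 9.26 from 0 h to 9 h and between 8.28 and 8.73 on the later 12 arrays. Its step was -0.67 ± 0.19 log2 units (adjusted p = 0.0269), and it did not pass under 8 of its 27 alternatives, with an adjusted p up to 0.193.

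ILMN_2402463, the remaining SHMT1 probe, was 9.49, 9.55, 9.69 and 9.47 from 0 h to 9 h and 9.43, 9.40, 9.22 and 9.33 from 12 h to 21 h, and from 12 h on it did not rise above 9.43. From 9 h, the lowest of the first 4 arrays, to 12 h, the highest of the next 4, the difference was -0.04. Its step of -0.09 ± 0.18 log2 units did not pass (95% interval -0.47 to 0.29, adjusted p = 0.820), although its linear change of -0.47 ± 0.11 over 45 h did (adjusted p = 0.00211). Which transcripts each probe reads was not analysed here, and the difference between the SHMT1 probes was not tested. On the log2 scale the Pearson r with ILMN_1811933 over the 16 arrays was 0.59.

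GLDC, the glycine decarboxylase, was detected from 0 h to 9 h, on no array from 12 h to 21 h and on some arrays after that. Its log2 signal (ILMN_1806754) was 7.65, 7.90, 7.67 and 6.96 from 0 h to 9 h, where it was detected on all 4 arrays. From 12 h to 21 h it was 5.58, 5.89, 5.45 and 5.70, and it was not well above background on any of these 4 arrays. GLDC was detected on 3 of the 4 arrays from 24 h to 33 h (6.54, 6.43 and 6.47 log2 units at 24 h, 27 h and 30 h) and on 1 of the last 4, at 39 h (6.33). On the background-corrected, normalized values the mean at 12 h to 21 h was at least 2.86-fold lower than at 0 h to 9 h. That was taken against the lowest signal among detected probes of each array. The bound holds for this background correction alone. The fitted step was -1.63 ± 0.46 log2 units (adjusted p = 0.0252 in limma), which rests on values below detection. It was -0.59 without background correction and -2.44 without the 9 h array, and passed in both. It did not pass without the 0 h array (adjusted p = 0.155), the 6 h array (0.101) or the 12 h array (0.0872), on 0 h to 21 h alone (0.120) or with steps at 24 h and 36 h as further terms (0.0656).

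All 4 arrays of 12 h to 21 h were below all 4 of 0 h to 9 h for 5 probes, those of MTHFD1, GLDC and SHMT1 (13% of all tested probes), and all 4 were above for 0 of the 11 (12.5% of all). For PSAT1 and SHMT2 the overlap came from the decline within each set, and the arrays above all of the earlier 4 were those of 12 h, 15 h and 18 h in PSAT1 and of 12 h and 15 h in SHMT2.

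MTHFD2, the mitochondrial dehydrogenase and cyclohydrolase, passed neither the test of time dependence nor that of the step. ILMN_2405521 ranged from 12.44 to 13.01 log2 units and was highest at 9 h, and ILMN_1674706 ranged from 11.94 to 12.54 and was highest at 12 h. Their linear changes were -0.22 ± 0.13 (adjusted p = 0.174) and -0.25 ± 0.12 log2 units (adjusted p = 0.0968), and their steps were -0.43 ± 0.18 (95% interval -0.81 to -0.05, adjusted p = 0.134) and -0.06 ± 0.19 (95% interval -0.46 to 0.35, adjusted p = 0.906). Steps of the size seen in PSAT1 and MTHFD1 lie outside both intervals. Without the 12 h array the step of ILMN_2405521 was -0.76 and passed (adjusted p = 0.00561). The linear fall of ILMN_1674706 passed in limma with cyclic loess in place of quantile normalization (-0.31, adjusted p = 0.0432). It also passed without the 45 h array (-0.33, adjusted p = 0.0340). The mitochondrial enzymes SHMT2 and MTHFD2, which act in sequence, thus differed in the tests they passed in the main fit. The difference between their courses was not tested.

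Over the 16 arrays, the courses were compared by Pearson r on the log2 scale and again on what was left after the cubic was removed. These values are descriptions, since all points share their arrays. PSAT1 and SHMT2 had r = 0.93, and 0.84 after the cubic was removed. PHGDH had r = 0.84 with PSAT1, 0.90 with SHMT2 and 0.83 with PSPH, and 0.50, 0.37 and 0.67 after the cubic was removed. MTHFD1 had r = 0.91 with SHMT1 ILMN_1811933, 0.94 with SHMT1 ILMN_1743784 and 0.90 with GLDC, and 0.83, 0.81 and 0.78 after the cubic was removed. Between these groups the order changed with the cubic, as PSAT1 and MTHFD1 had r = 0.08 before and -0.89 after its removal, and PSAT1 and SHMT1 ILMN_1811933 had -0.11 and -0.85. A cubic does not follow an abrupt shift, so what is left holds much of the step between 9 h and 12 h. The values after its removal therefore largely restate that step and are not separate evidence of groups.

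Among 12343 other probes detected on all 16 arrays, the genes with the courses most like PSAT1 were SLC7A5, a transporter of large neutral amino acids (r = 0.97), ASNS, asparagine synthetase (0.97), and PCK2, mitochondrial phosphoenolpyruvate carboxykinase (0.94). Those most like SHMT2 were IARS, isoleucyl-tRNA synthetase (0.96), LAMB3, a laminin chain (0.95), and PCK2 (0.93). PHGDH was closest to CHEK2 (0.96), BUB3 (0.96) and CKS1B (0.95), which act in the DNA damage checkpoint, the spindle checkpoint and cyclin-dependent kinase complexes. For PSPH these were EPGN (0.93), ANAPC1 (0.90) and MIS12 (0.90).

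MTHFD1 was closest to NDUFA9, a subunit of respiratory complex I (0.99), HPRT1 of purine salvage (0.97) and the histone methyltransferase EZH2 (0.97). SHMT1 ILMN_1811933 was closest to PXMP2 (0.97), PSMA1 (0.96) and CHD5 (0.96), and ILMN_1743784 to POLE (0.97), BOLA3 (0.97) and EZH2 (0.96). GLDC, with 8 of its 16 values below detection, was closest to HMGCS1 (0.95) of cholesterol synthesis, ELOVL6 (0.95) of fatty acid elongation and EEF1B2 (0.95). SHMT1 ILMN_2402463 was closest to WBSCR22 (0.95), LRRTM4 (0.94) and HSBP1 (0.93). For MTHFD2 the closest were SNX26 (0.85), MDM1 (0.84) and S100A13 (0.84) by ILMN_2405521, and CLTA (0.84), NUP37 (0.82) and GPM6B (0.80) by ILMN_1674706.

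Other genes of one-carbon metabolism were taken as a list of 34, of which 26 had a tested probe. Of these 12 fell, 6 rose and 8 did not pass over 45 h, where 21.7% of all tested probes fell and 26% rose. The median linear change was -0.17 log2 units, beside 0.05 for all tested probes. ALDH1L2, one of the 6 that rose, was detected on 3 arrays, 0 of them from 0 h to 9 h, and passed the detection filter through later arrays alone. Among probes detected on all 16 arrays, 12 of the list fell (24.6% of all such probes) and 4 rose (30.5%). The largest changes were in TYMS, which makes thymidylate (-3.02 ± 0.41), SLC19A1, the reduced folate carrier (-1.94 ± 0.19), MTHFD1L, the mitochondrial formate-producing enzyme (-1.71 ± 0.19), and GGH, which removes the glutamate tail of folates (-1.53 ± 0.12). The adjusted p of these 4 in limma was between 8.27e-09 and 5.39e-06.

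At 12 h 5 genes stepped up (5.92% of all tested probes), 5 stepped down (6.08% of all) and 16 did not pass, with a median step of -0.04 log2 units. The largest upward steps were those of MAT2A, which makes S-adenosylmethionine (1.92 ± 0.24, adjusted p = 8.83e-05 in limma), and CBS, which condenses serine with homocysteine (1.48 ± 0.19, adjusted p = 9.11e-05). The largest downward steps were those of TYMS (-2.34 ± 0.39, adjusted p = 0.000882) and SRR, serine racemase (-0.67 ± 0.20, adjusted p = 0.0332). MTHFD1L, which does in mitochondria a part of what MTHFD1 does in the cytosol, stepped up by 1.00 ± 0.21 log2 units (adjusted p = 0.00490) and was named after its value was seen. The counts depended on single arrays, with 2 upward steps without the 9 h array (3.81% of all). Downward steps numbered 3 without the 0 h array (2.86% of all) and 2 without the 9 h (3.45%) or the 15 h array (4.39%). Median scaling gave 2 downward steps (4.36% of all).

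**Figure D3:**
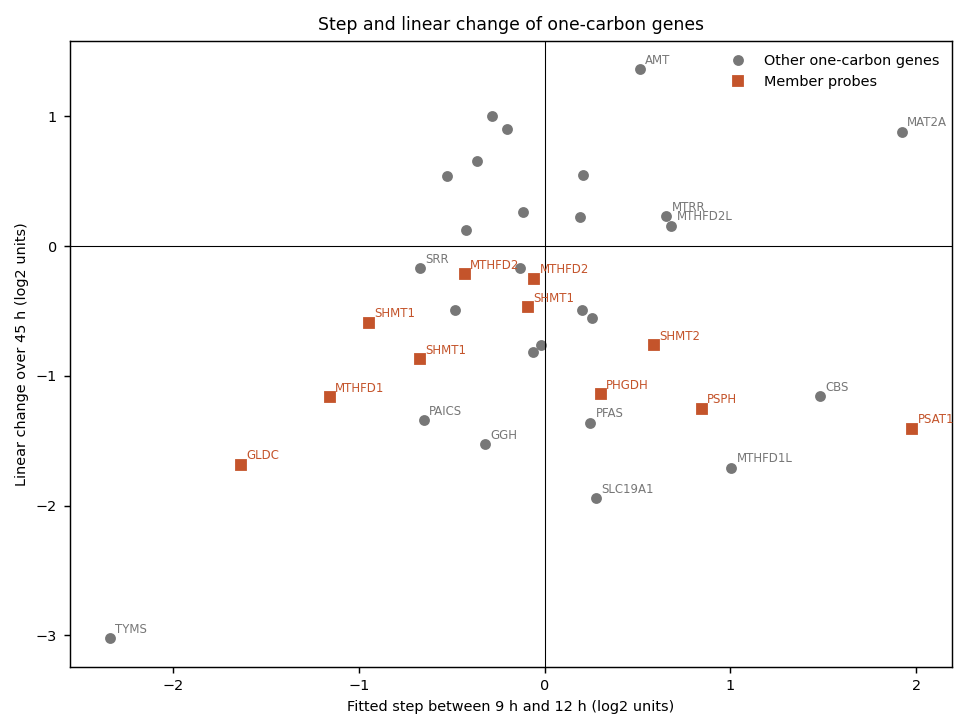
Linear change over 45 h (y axis, log2 units) against the fitted step between 9 h and 12 h (x axis, log2 units), with squares for the 11 tested probes of the 8 enzymes and circles for 26 other one-carbon genes, 1 probe each. The squares lie below 0 on the y axis and run from GLDC on the left to PSAT1 on the right, with TYMS at the lower left and MAT2A and CBS at the right.

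Genes that supply the pathway from glycolysis or that carry and use serine and glycine formed a second list, of which 19 were tested. Over 45 h 6 rose (26% of all tested probes), 4 fell (21.7% of all) and 9 did not pass, with a median of 0.05 log2 units, beside 0.05 for all tested probes. These shares are near those of all probes, and the falls numbered 1 with the step as a further term (13.2% of all). The largest changes were in GATM of creatine synthesis (0.82 ± 0.16), PGK1, which makes 3-phosphoglycerate (-0.81 ± 0.12), SPTLC2, which joins serine to palmitoyl-CoA (0.77 ± 0.12), and SLC1A4, a serine and alanine carrier (-0.72 ± 0.26). SLC1A4 was dim and was detected on 9 arrays, and its change had an adjusted p of 0.0308 in limma. At 12 h 1 of the 19 genes stepped up (5.92% of all tested probes), SLC1A5, a carrier of glutamine and serine (1.12 ± 0.14, adjusted p = 9.11e-05 in limma). With a straight line beside the step 4 stepped up (7.64% of all). In the main fit 3 stepped down (6.08% of all). They were led by GCAT, which breaks down threonine to glycine (-1.19 ± 0.17, adjusted p = 0.000267), and GATM (-0.91 ± 0.16, adjusted p = 0.00102).

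A further 2 lists had been seen in earlier results of these data to move at 12 h and are given for the values beside the enzymes. Of ATF4 and 17 of its target genes, none of them among the 8 enzymes, 9 of 18 stepped up at 12 h (5.92% of all tested probes) and 0 stepped down (6.08% of all, and 0 of the 18 at an unadjusted p under 0.05), with a median step of 0.64 log2 units. On 0 h to 21 h alone 5 stepped up (0.701% of all tested probes), and without the 12 h array 2 stepped down (5.50% of all). ASNS (1.99 ± 0.18, adjusted p = 3.35e-06 in limma) and SLC7A11, the cystine transporter (1.98 ± 0.43, adjusted p = 0.00605, detected on 11 arrays), had the largest steps of this list. ATF4 itself stepped up by 0.61 ± 0.16 log2 units (adjusted p = 0.0185). Over 45 h 7 of the 18 rose (26% of all) and 4 fell (21.7% of all). These changes were led by NUPR1 (2.42 ± 0.10) and VLDLR (1.23 ± 0.11) among those that rose and by ASNS (-1.53 ± 0.30) and SLC7A11 (-1.45 ± 0.38) among those that fell. With the step as a further term 4 rose (14.2% of all) and 7 fell (13.2% of all). In limma with the set of arrays as a factor 0 rose (0.422% of all) and 0 fell (0.478% of all), or 2 and 4 at an unadjusted p under 0.05.

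Of 16 genes of S phase, 12 stepped down (6.08% of all tested probes) and 0 stepped up (5.92% of all, and 0 of the 16 at an unadjusted p under 0.05), with a median step of -1.10 log2 units. Over 45 h 15 fell (21.7% of all) with a median of -2.29. With the step as a further term 11 fell (13.2% of all), and in limma with the set as a factor 0 fell (0.478% of all, and 8 of the 16 at an unadjusted p under 0.05). CDC6, one of the 15, was detected on 4 arrays, all from 0 h to 9 h, and passed the detection filter through them alone. Among the 13 genes detected on all 16 arrays, 13 fell (24.6% of all such probes) and 12 stepped down (7.72% of all such probes). RRM2, a ribonucleotide reductase subunit (-2.41 ± 0.35), and CDT1, a replication licensing factor (-2.22 ± 0.41), had the largest steps. The largest linear changes were those of RRM2 (-4.36 ± 0.40), GINS2 (-3.98 ± 0.24), MCM2 (-3.30 ± 0.26) and CCNE2 (-2.74 ± 0.25). The part of a smaller share of cells in S phase, or of ATF4, in the steps of the 8 enzymes was not tested, and in bulk RNA fewer cells of a kind and less RNA per cell cannot be told apart.

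**Figure D4:**
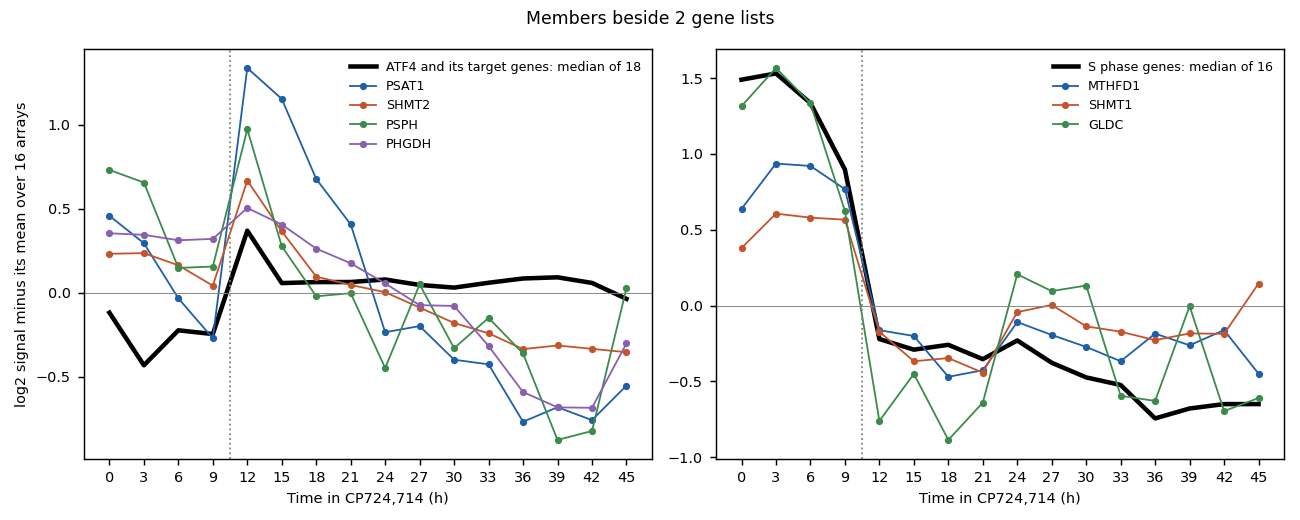
Log2 signal minus its mean over the 16 arrays (y axis) against hours in CP724,714 (x axis), with the median of 18 ATF4 genes (left) and of 16 S phase genes (right) as thick lines and enzymes as thin lines, SHMT1 by its probe ILMN_1811933. Each enzyme is drawn beside the list that moved in its own direction at 12 h, so a likeness there follows from the choice. MTHFD2 and the other SHMT1 probes are not drawn. PSAT1, SHMT2, PSPH and PHGDH are highest at 12 h, as is the ATF4 list, and later go below it. MTHFD1, SHMT1 and GLDC are high from 0 h to 9 h, as is the S phase list, and lower from 12 h on.

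The linear falls depended on how the sets of 4 arrays were treated. With the step as a further term, 4 of the 11 probes fell over 45 h, beside 13.2% of all tested probes, and the linear term of MTHFD1 became 0.06 (adjusted p = 0.895) and that of SHMT1 ILMN_1811933 0.41 (adjusted p = 0.181). Within the sets, with the set as a factor, 0 of the 11 probes fell (2 at an unadjusted p under 0.05), beside 0.478% of all tested probes. PSAT1 and SHMT2 were then at -2.25 (adjusted p = 0.0878) and -1.38 (adjusted p = 0.0785), and PHGDH at -0.57 (adjusted p = 0.540). For PHGDH the 45 h array was above the preceding 3, which lay at 14.90 or below.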

How the data were processed

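Total RNA of SUM225 cultures was amplified to biotin-labelled cRNA for Illumina Ref8 arrays. The deposited table gives a linear signal intensity per probe and array, without background subtraction or normalization by the authors, and the deposited detection p-value of each. All columns of sample values were used, and samples were grouped by the time in their labels, with 1 array per time point.

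Signals were background corrected by normexp in limma 3.58.1 (R 4.3.3), with negative controls inferred from the detection p-values and an offset of 16, which shrinks the fold changes of dim probes, then quantile normalized and log2 transformed. The tested probes had a detection p-value below 0.05 on 3 or more arrays. A cubic in hours was fitted (lmFit, then eBayes with trend). It gave the time dependence and the linear change over 45 h, and an indicator of 12 h or later beside it gave the step. Tests were two-sided with Benjamini-Hochberg adjustment over all 16110 probes at 0.05. The error comes from deviations around each fitted course, since no time point had a replicate, and the number of arrays limits its precision. The straight line over 12 h to 45 h was chosen after seeing the data.

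The enzymes, the gene lists and the time of the step were chosen with earlier results of these data known. Named genes were all members, the 4 largest linear changes and the 2 largest steps in each direction of each list among those past the threshold, and the 3 courses most like each probe. Of several probes, list genes took the one with the highest mean. Lists are described by counts and medians, which omit 1 gene that is not reported here. The lowest signal among detected probes of an array set the bounds for undetected ones. Promoters and gene names are from RefSeq (GRCh38.p14). Python 3.11.15 with matplotlib 3.10.9 drew the figures. The alternatives were other background, scaling, filter, weighting and time terms, and each array left out in turn.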

Additional observations from a re-analysis of the deposited data

How the results depend on the processing

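Of 778 values of the enzymes under an alternative, 732 changed neither sign nor call, among them the steps of PSAT1, SHMT2 and SHMT1 ILMN_1811933 under all 27. No paired analysis was possible because there was a single array at each time. With the step beside the cubic, the count of falling probes was 4, and linear changes turned to 0.045 in GLDC, 0.060 in MTHFD1, 0.41 in SHMT1 ILMN_1811933 and 0.24 in MTHFD2 ILMN_2405521. With the set of arrays as a factor the count was 0, with 0.13 for SHMT1 ILMN_1811933 and 0.45 for ILMN_2402463, and the cause was not tested. Leave-one-out gave 8 to 10 falling probes (19.2% to 22.0% of all), 2 to 4 steps down (2.86% to 7.15%) and 2 up (2.53% to 6.84%). Without the 0 h array 2.53% of all probes stepped up and 2.86% down. Steps down numbered 2 with steps at 12 h, 24 h and 36 h together (5.05% of all) and 1 on 0 h to 21 h alone (1.32% of all).

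For the 26 other one-carbon genes, linear falls numbered 1 with the set as a factor (0.478% of all probes). Rises numbered 3 with the step as a term (14.2%) and 0 with the set as a factor (0.422%). Their steps down numbered 2 under median scaling (4.36%), 3 with array weights (5.45%) and 3 with steps at 12 h, 24 h and 36 h together (5.05%). Steps down were 2 on 0 h to 21 h (1.32%) and 2 to 5 in leave-one-out (2.86% to 7.15%). Their steps up numbered 2 with a straight line beside the step (7.64%), 2 on 0 h to 21 h (0.701%) and 2 to 5 in leave-one-out (2.53% to 6.84%). Median scaling moved the upward share of all steps called from 49.3% to 61.2%, and fitting 0 h to 21 h alone to 34.8%.

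Steps that did not pass changed sign in MTHFD2 ILMN_1674706, to 0.023 under median scaling, 0.027 beside a straight line, 0.053 with steps at 12 h, 24 h and 36 h, 0.079 on 0 h to 21 h, and -0.30 to 0.22 in leave-one-out, and in SHMT1 ILMN_2402463, which gave -0.22 to 0.0017 in leave-one-out. The change after 12 h, also not past the threshold, ranged in leave-one-out from -0.049 to 0.29 in GLDC and from -0.11 to 0.057 in MTHFD1. Depth is unknown for bead arrays, and GLDC is limited by detection on 8 of 16 arrays.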
